A study of Mus musculus with 12 samples.

Results

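The genes described here are 212 protein-coding mouse genes that carry a very long internal exon, meaning an exon of 2000 nt or more that is neither the first nor the last of its transcript. They were found in the GENCODE M21 annotation (GRCm38 assembly) among protein-coding transcripts tagged basic. Of the 321 annotated genes with such an exon, 320 were in the count files. A gene was kept if its mean raw count over the 4 scramble libraries was 100 or more, which 212 met and 108 did not. Members were chosen by exon length and by that mean count, the only measured value in the rule. The set itself was taken up with earlier results of these data known, so its choice is not independent of them. All 212 passed the filter on low counts and were among the 17569 genes tested, out of 55401 gene identifiers. The members include Rev3l, Atrx, Brca1 and Brca2.

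Most internal exons of mammalian genes are short, and the spliceosome is thought to recognise an exon by its ends together. A very long internal exon may therefore depend on RNA-binding proteins that hold its ends in use and keep splice-site-like letters inside it silent. RBMX (hnRNP G) is a nuclear RNA-binding protein that acts on splicing and on genome stability, and Rbmxl1 is a retrocopy of Rbmx. Genes with very long internal exons include several large DNA repair and chromatin proteins.

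RNA was measured in Neuro-2a, a mouse neuroblastoma cell line, after transient knockdown with artificial microRNAs in a miR30 backbone under a pCAG promoter. The 3 groups of 4 libraries differed only in the microRNA plasmid: a scramble sequence, 3 pooled plasmids that target Rbmx, or 2 pooled plasmids that target Rbmxl1. All cells also received 1 µg of a GFP plasmid together with 3 µg of microRNA plasmid in total, and GFP-positive cells were sorted 48 h after transfection. The labels leave the amount of each Rbmxl1 plasmid unclear. The model is therefore 1 cell line with partial knockdown by pooled microRNAs, without single-construct controls. The labels number biological replicates 1 to 4 in each group but do not state what the number stands for, so p-values measure the spread between these samples. The files hold 1 count per gene, so they show how much RNA of a gene was present and not how its exons were joined. In bulk RNA, fewer cells of one kind and less RNA per cell cannot be told apart.

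The long exons ranged from 2001 to 9837 nt, with a median of 2852 nt, and 94 members had one of 3000 nt or more. In 165 members the exon was entirely coding sequence, and in 5 it was under 50% coding. The exon made up a median of 41.8% of its transcript, against 8.35% for the longest internal exon of the 10106 other protein-coding genes with a mean count of 100 or more that have an internal exon. The centre of the long exon lay at a median of 37.9% of the transcript from its 5′ end. The exon was the second of its transcript in 33 members and the last but one in 37. In 138 members every basic coding transcript held an internal exon of 2000 nt or more, and in 74 only some did. Gnas, which encodes a G protein alpha subunit, had it in 1 of 14 basic coding transcripts, so its gene count says little about that exon. A total of 147 members overlapped another annotated gene, 77 of them on the same strand. Because the strand setting of the counting is not given in the sources used here, counts of overlapping genes are uncertain.

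The ends of 4 long exons are shown because these exons belong to the genes that mark the set, Rev3l, Atrx, Brca1 and Brca2. Capitals mark 30 bases of the long exon and lower case marks 30 bases of the neighbouring exon, joined as in the spliced transcript and read 5′ to 3′. Coordinates on GRCm38 are those of the capitals.
Rev3l exon 13 of 32, start, chr10:39821106-39821135, plus strand: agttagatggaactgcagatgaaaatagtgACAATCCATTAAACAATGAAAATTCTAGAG
Rev3l exon 13, end, chr10:39825229-39825258, plus strand: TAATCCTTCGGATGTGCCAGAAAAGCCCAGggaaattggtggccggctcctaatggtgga
Atrx exon 9 of 35, start, chrX:105877544-105877573, minus strand: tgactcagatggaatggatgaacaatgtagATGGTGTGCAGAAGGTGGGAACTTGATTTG
Atrx exon 9, end, chrX:105874560-105874589, minus strand: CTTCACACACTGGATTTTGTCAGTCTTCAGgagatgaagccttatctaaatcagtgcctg
Brca1 exon 10 of 23, start, chr11:101526610-101526639, minus strand: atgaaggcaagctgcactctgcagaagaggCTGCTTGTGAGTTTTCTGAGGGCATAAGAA
Brca1 exon 10, end, chr11:101523325-101523354, minus strand: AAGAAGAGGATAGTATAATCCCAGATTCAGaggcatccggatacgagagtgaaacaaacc
Brca2 exon 11 of 27, start, chr5:150538649-150538678, plus strand: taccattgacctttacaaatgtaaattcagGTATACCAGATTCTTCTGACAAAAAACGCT
Brca2 exon 11, end, chr5:150543428-150543457, plus strand: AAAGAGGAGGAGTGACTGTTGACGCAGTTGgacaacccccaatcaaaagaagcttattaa

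These 4 exons were 4153, 3014, 3315 and 4809 nt long, all of it coding. All 4 were rich in A, with 34.3% A in Rev3l, 37.4% in Atrx, 32.6% in Brca1 and 36.7% in Brca2. The median over the long exons of the 212 members was 28.2% A, and over the longest internal exon of 545 other genes with one of 1000 to under 2000 nt it was 25.5% A. The word GGTAAG, the letters often found where an exon ends and an intron begins, was searched on the sense strand. The long exon of Rev3l held 1 match and that of Brca1 held 2, and those of Atrx and Brca2 held none. The matches are printed with GGTAAG in capitals and the exon letters around them in lower case, with the coordinates of the whole line.
Rev3l exon 13, chr10:39822656-39822715, plus strand: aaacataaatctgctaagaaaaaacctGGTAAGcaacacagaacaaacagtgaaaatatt
Brca1 exon 10, chr11:101524514-101524573, minus strand: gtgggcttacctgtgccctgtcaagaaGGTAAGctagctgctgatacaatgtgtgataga
Brca1 exon 10, chr11:101523968-101524027, minus strand: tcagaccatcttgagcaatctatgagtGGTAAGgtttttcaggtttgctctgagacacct
A match describes the letters and is not evidence that a splice site is used. In the first 1000 nt of the exon, the word was present in 17 of the 212 members (8.02%) and in 32 of the 545 other genes (5.87%). The last base of the long exon was a G in 185 members (87.3%), against 86.2% of the 545 other exons, and the first base of the exon after it was G in 42.9% against 52.5%.

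Each library held 43.1 to 52.2 M reads in genes. Levels are given as CPM, counts scaled to library size after TMM adjustment, and a count of 0 would allow up to 0.0574 to 0.0696 CPM. Rbmx fell from 57.6 to 73.3 CPM in the scramble libraries to 22.2 to 32.6 CPM in the Rbmx knockdown, a log2 fold change of −1.30 ± 0.08 (SE, adjusted p 2.1e-07). Rbmxl1 fell from 31.3 to 36.7 CPM to 12.3 to 16.7 CPM in the Rbmxl1 knockdown (−1.27 ± 0.09, adjusted p 3.2e-06), where Rbmx rose by 0.36 ± 0.07 on the log2 scale (adjusted p 0.017). Of 13 Neuro-2a markers 10 were at 1 CPM or more, Nefl and Nefm were near 0, and Mycn rose in both knockdowns (adjusted p 0.013 and 0.0084). The 5 fibroblast markers summed to at most 2.98 CPM in any library, the 4 blood markers to at most 1.52 CPM and the 3 epithelial markers to at most 0.46 CPM. Of the 3 endothelial markers, Pecam1 ranged from 4.62 to 7.82 CPM while Cdh5 and Kdr were at most 0.047 CPM. Reads outside annotated features made up 36.3 to 39.0% of reads in genes plus such reads in replicates 1 and 2 and 39.7 to 42.6% in replicates 3 and 4. By group that share averaged 38.8% in scramble, 39.5% in the Rbmx knockdown and 40.5% in the Rbmxl1 knockdown (n = 4 each). Within same-number pairs it exceeded scramble in 3 of 4 for the Rbmx and 4 of 4 for the Rbmxl1 knockdown. All reads that named no gene, as a share of each file, were higher in 4 of 4 pairs in both knockdowns. The part of these shares in the results was not tested.

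The first question was whether the 212 genes, as a set, changed when Rbmx was reduced. Changes are log2 fold changes ± SE, and each adjusted p comes from edgeR's quasi-likelihood F-test, with the replicate number as a block and the Benjamini-Hochberg method over all genes tested. Called means an adjusted p under 0.05. Against scramble, 29 of the 212 members (13.7%) were called lower and 6 (2.83%) higher. Among all genes tested, 4.19% were called lower and 4.16% higher. Among the 10725 other protein-coding genes with a mean count of 100 or more, 5.51% were called lower and 6.43% higher. The members' share called lower was thus above both backgrounds and their share called higher below both. Members had larger counts than those other genes, with a median over genes of 4846 against 1945 mean counts in scramble. Larger counts make calls easier, and the part of this in the shares was not tested.

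The median change of the members in the Rbmx knockdown was −0.080, with 151 of 212 below 0. The median of all genes tested was under 0.001 in size, and that of the other protein-coding genes was 0.013. The shift of the median was small beside the range of single members, from −0.61 for Dnhd1 to 0.50 for Rab11fip5. Among called-lower members the changes ran from −0.61 to −0.19 with a median of −0.29, and 1 of the 35 called members passed 1.5-fold. Every Rbmx knockdown library lay below every scramble library in 22 of the 212 members (10.4%), against 3.85% of all genes tested. Among called-lower members this held for 13 of 29 (44.8%), close to the 43.1% of all genes called lower. Without the replicate block no member was called in edgeR (lowest adjusted p 0.24), and of all genes tested 1 (0.00569%) was called. In that fit 35 members (16.5%) had an unadjusted p under 0.05, of which 32 were lower, against 10.9% of all genes tested. The calls of members and of other genes alike thus depend on comparing libraries of the same number.

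**Figure D1:**
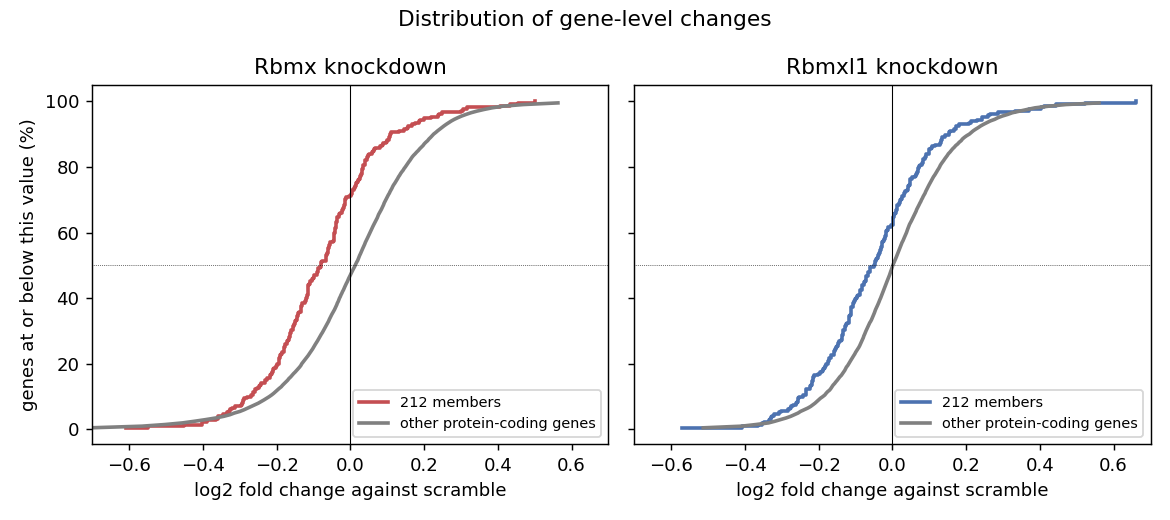
Cumulative percent of genes (y axis) at or below each log2 fold change against scramble (x axis), for the 212 members (coloured) and the 10725 other protein-coding genes with a mean count of 100 or more (grey), in each knockdown. The members' curve lies to the left of the grey curve around the middle, where the medians are −0.080 against 0.013 in the Rbmx knockdown.

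With Rbmxl1 reduced, 23 members (10.8%) were called lower and 4 (1.89%) higher against the same scramble libraries. Among all genes tested 2.2% were called lower and 2.25% higher, and among the other protein-coding genes 3.11% and 3.33%. The median change was −0.049, with 132 of 212 below 0, against 0.0070 over all genes tested. Called-lower members ran from −0.57 to −0.20 with a median of −0.28. Every Rbmxl1 knockdown library lay below every scramble library in 15 members (7.08%), against 2.79% of all genes tested, and in 14 of the 23 called-lower members (60.9%), against 49.1% of all genes called lower. Again no member was called without the replicate block in edgeR (lowest adjusted p 0.33), and 1 gene (0.00569%) was called among all those tested. Of the members 32 (15.1%) had an unadjusted p under 0.05 in that fit, against 8.46% of all genes tested.

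The members' medians were taken within each same-number pair. With Rbmx reduced, they were −0.11, −0.11, −0.045 and −0.064 for replicates 1 to 4, all below those of the other protein-coding genes in the same pair, which ran from −0.00028 to 0.031. After Rbmxl1 knockdown, the members' medians were −0.062, −0.020, −0.090 and −0.035. Here replicate 2 stood apart, since the other genes had a median of −0.027 there, slightly below the members. The summed reads of the members made up 4.30%, 4.16%, 4.09% and 3.96% of reads in genes in scramble replicates 1 to 4. They made up 3.82%, 3.77%, 3.91% and 3.82% in the Rbmx knockdown and 3.87%, 4.19%, 3.91% and 3.79% in the Rbmxl1 knockdown. The Rbmx knockdown libraries all lay below the scramble libraries, while the Rbmxl1 knockdown overlapped them through replicate 2.

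**Figure D2:**
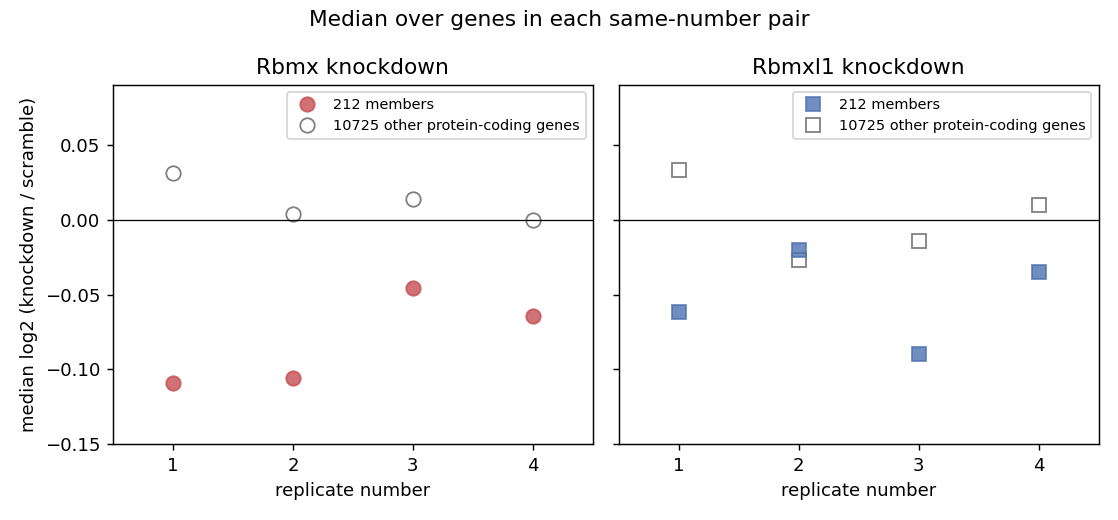
Median log2 ratio of knockdown to scramble (y axis) over the 212 members (filled) and the 10725 other protein-coding genes (open) for each replicate number (x axis), in each knockdown. After Rbmx knockdown, the members lie below the other genes at every number, and in the Rbmxl1 knockdown they do so at 3 of 4.

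The set is also long in total, so GC content and exonic length were taken into account in 2 ways. The members had a median exonic length of 9980 nt against 4582 nt for the other protein-coding genes, and a median transcript GC content of 50.1% against 50.4%. After a smooth trend on GC content and exonic length over all protein-coding genes tested was subtracted, the members' median was −0.031 in the Rbmx knockdown, with 129 of 212 below the trend. That of the other genes was 0.018. The corresponding medians in the Rbmxl1 knockdown were −0.021, with 121 of 212 members below the trend, and −0.0056. The members' medians thus lay closer to 0 after the trend was removed, and remained below those of the other genes. The SD of the members' median over the 4 same-number pairs, without the trend subtracted, was 0.031 in each knockdown. The remaining gap to the other genes in the Rbmxl1 knockdown was smaller than this SD. When the same trends entered the model as offsets, 15 members (7.08%) were called lower and 8 (3.77%) higher in the Rbmx knockdown, against 2.76% and 3.15% of all genes tested and 3.5% and 4.77% of the other protein-coding genes with a mean count of 100 or more. The share called higher thus lay between these backgrounds. For the Rbmxl1 knockdown, 10 members (4.72%) were called lower and 4 (1.89%) higher, against 0.996% and 1.05% of all genes tested and 1.3% and 1.49% of the other protein-coding genes. There the share called higher lay above both backgrounds, where it had lain below both without the offsets. Of the 29 members called lower in the Rbmx knockdown 14 were called lower with the offsets too, and of the 23 in the Rbmxl1 knockdown 10 were.

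Across protein-coding genes with a mean count of 100 or more, the change was described by the length of the longest internal exon. For the Rbmx knockdown, the median was 0.036 below 200 nt (4118 genes), 0.011 from 200 to under 500 nt, −0.040 from 500 to under 1000 nt, −0.067 from 1000 to under 2000 nt, −0.065 from 2000 to under 3000 nt (118 genes) and −0.090 at 3000 nt or more (94 genes). The share called lower was 4.08% below 200 nt, 12.3% from 1000 to under 2000 nt, 11.9% from 2000 to under 3000 nt and 16.0% at 3000 nt or more. Under Rbmxl1 knockdown, the medians were 0.014 below 200 nt, −0.062 from 1000 to under 2000 nt, −0.045 from 2000 to under 3000 nt and −0.061 at 3000 nt or more. The 2000-nt limit was thus no step: genes with a longest internal exon of 1000 to under 2000 nt had medians close to those of the members. Median exonic length moved with these classes, from 3692 nt below 200 nt to 11795 nt at 3000 nt or more. After the trend was subtracted the medians in the Rbmx knockdown were −0.032 from 1000 to under 2000 nt, −0.036 from 2000 to under 3000 nt and −0.019 at 3000 nt or more. In the Rbmxl1 knockdown they were −0.033, −0.025 and −0.0050.

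**Figure D3:**
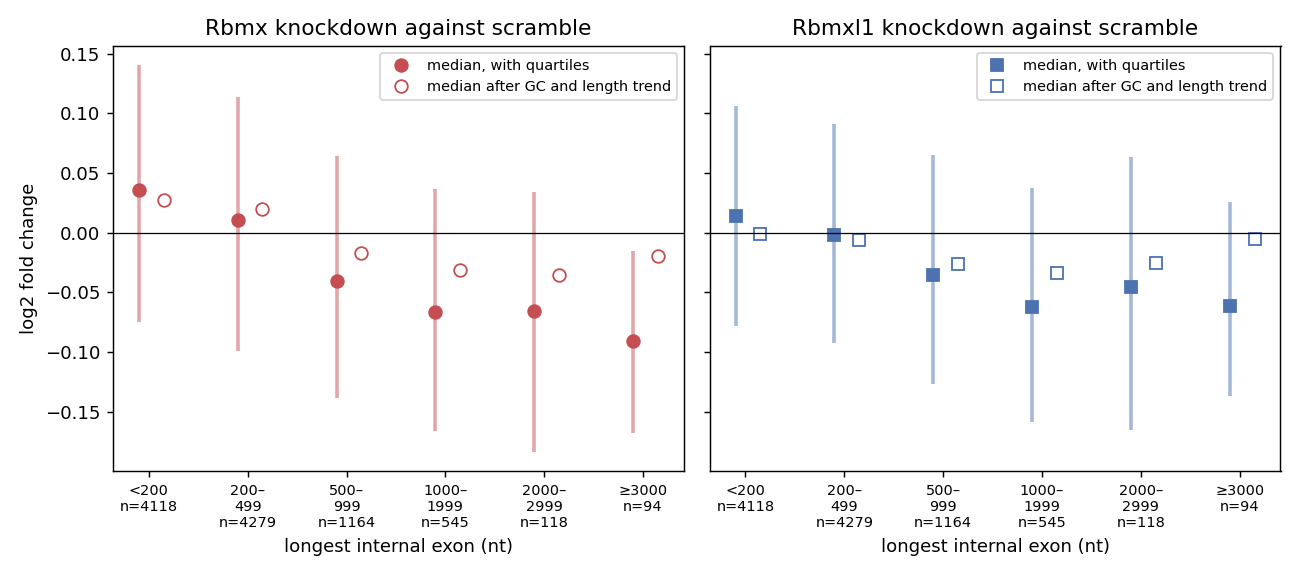
Median log2 fold change against scramble (filled, with lines from the lower to the upper quartile; y axis) of protein-coding genes with a mean count of 100 or more, in classes of the longest internal exon (x axis, nt), and the median after subtracting the trend on GC content and exonic length (open). The filled medians go from 0.036 below 200 nt to −0.090 at 3000 nt or more in the Rbmx knockdown, and the open ones stay between −0.036 and 0.027.

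Among the members themselves the change was only weakly related to the length of the long exon. Spearman's rho over the 212 genes was −0.069 in the Rbmx knockdown and −0.087 in the Rbmxl1 knockdown, and it was −0.26 and −0.21 with exonic length. Genes in one library share its depth and are not independent, so these are descriptions. The 46 members with an exon of 4000 nt or more had medians of −0.12 and −0.097, with 38 and 36 of them below 0, and of −0.057 and −0.041 after the trend was subtracted. The 48 with an exon of 3000 to under 4000 nt had medians of −0.039 and 0.0029, and of 0.0025 and 0.036 after it. Of the 70 members with the lowest transcript GC content 15 and 14 were called lower in the Rbmx and Rbmxl1 knockdowns, against 6 and 4 of the 71 with the highest. With the GC and length offsets this gap was gone, with 4 and 4 called lower among the lowest and 6 and 4 among the highest. After the GC and length trend was subtracted, the medians of these classes were −0.030 and −0.040 in the Rbmx knockdown and −0.038 and −0.011 in the Rbmxl1 knockdown. The 36 members called lower in at least 1 knockdown had long exons with a median of 31.4% A, against 27.7% for the 168 members called in neither. The 60 members with a single basic coding transcript had medians of −0.090 and −0.066, close to those of the whole set.

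The 4 marking genes belong to DNA repair and replication. The members were read beside gene lists by role, each of which also holds genes without a very long internal exon. Of 50 genome maintenance genes, 10 were members and 40 others were tested. Under Rbmx knockdown, 4 of the 10 members were called lower and none higher, with a median of −0.22. These 4 were Rev3l, Atrx, Brca1 and Bod1l. All but Bod1l are marking genes of a set taken up with earlier results of these data known. The 40 others had 6 called lower and 1 higher, with a median of −0.053. In the Rbmxl1 knockdown 2 of 10 members and 3 of 40 others were called lower, with medians of −0.16 and −0.011. When the GC and length offsets were used, 1 of 10 members and 4 of 40 others were called lower in the Rbmx knockdown, the same share, and 1 of 10 and 2 of 40 in the Rbmxl1 knockdown. The members called there were Rev3l in the Rbmx and Brca2 in the Rbmxl1 knockdown.

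Rev3l encodes the catalytic subunit of DNA polymerase zeta, which copies past damaged bases. In scramble replicates 1 to 4 it was at 219, 221, 226 and 218 CPM. It was at 163, 155, 196 and 184 CPM in the Rbmx knockdown and at 174, 200, 186 and 182 CPM in the Rbmxl1 knockdown. Every knockdown library lay below every scramble library. The log2 fold changes were −0.34 ± 0.07 (adjusted p 0.0092) and −0.25 ± 0.07 (adjusted p 0.043). With the GC and length offsets Rev3l was still called in the Rbmx knockdown (−0.24, adjusted p 0.034) and not in the Rbmxl1 knockdown (−0.16, adjusted p 0.17).

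Atrx encodes a chromatin remodeller that deposits histone H3.3 at repeats and telomeres. It was at 106, 110, 104 and 97.4 CPM in scramble, at 87.3, 83.2, 91.1 and 83.8 CPM in the Rbmx knockdown and at 97.9, 97.3, 83.6 and 78.8 CPM in the Rbmxl1 knockdown. The scramble and Rbmx knockdown libraries did not overlap, while the Rbmxl1 knockdown reached into the scramble range in replicate 1. Atrx fell by 0.27 on the log2 scale in the Rbmx knockdown (SE 0.06, adjusted p 0.019). With Rbmxl1 reduced, the change was −0.22 ± 0.06 and missed the threshold (adjusted p 0.055). With GC and length offsets it was −0.10 in the Rbmx knockdown and no longer called (adjusted p 0.33). The transcript of Atrx has a GC content of 39.5%, and 1 of its 2 basic coding transcripts holds the long exon.

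Brca1 encodes a ubiquitin ligase subunit needed for homologous recombination. It was at 154, 141, 159 and 151 CPM in scramble, 143, 123, 125 and 117 CPM in the Rbmx knockdown and 157, 143, 119 and 120 CPM in the Rbmxl1 knockdown. In the Rbmx knockdown replicate 1 overlapped the scramble range, and Brca1 fell by 0.26 on the log2 scale (SE 0.07, adjusted p 0.037). After Rbmxl1 knockdown, replicates 1 and 2 were above their scramble partners and replicates 3 and 4 below (−0.18 ± 0.07, adjusted p 0.18). With GC and length offsets the change in the Rbmx knockdown was −0.21 and was not called (adjusted p 0.099).

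Brca2 encodes a protein of double-strand break repair by homologous recombination. It was at 44.1, 43.4, 44.6 and 44.4 CPM in scramble, and all knockdown libraries lay below these. For the Rbmxl1 knockdown, it was at 40.3, 32.2, 26.1 and 22.0 CPM, lowest in replicates 3 and 4, and it fell by 0.57 on the log2 scale (SE 0.11, adjusted p 0.014). With the GC and length offsets it was still called (−0.48, adjusted p 0.029). With Rbmx reduced, it was at 38.5, 35.1, 40.0 and 37.4 CPM (−0.23 ± 0.11, adjusted p 0.22). Set directly against each other, the knockdowns differed by 0.34 for Brca2 (Rbmx minus Rbmxl1 knockdown), which did not pass the threshold (adjusted p 0.86). Brca2 in the Rbmxl1 knockdown was at −0.27 within replicates 1 and 2 and −0.90 within replicates 3 and 4, and the difference had an unadjusted p of 0.00033 and an adjusted p of 0.24 in edgeR's interaction test.

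**Figure D4:**
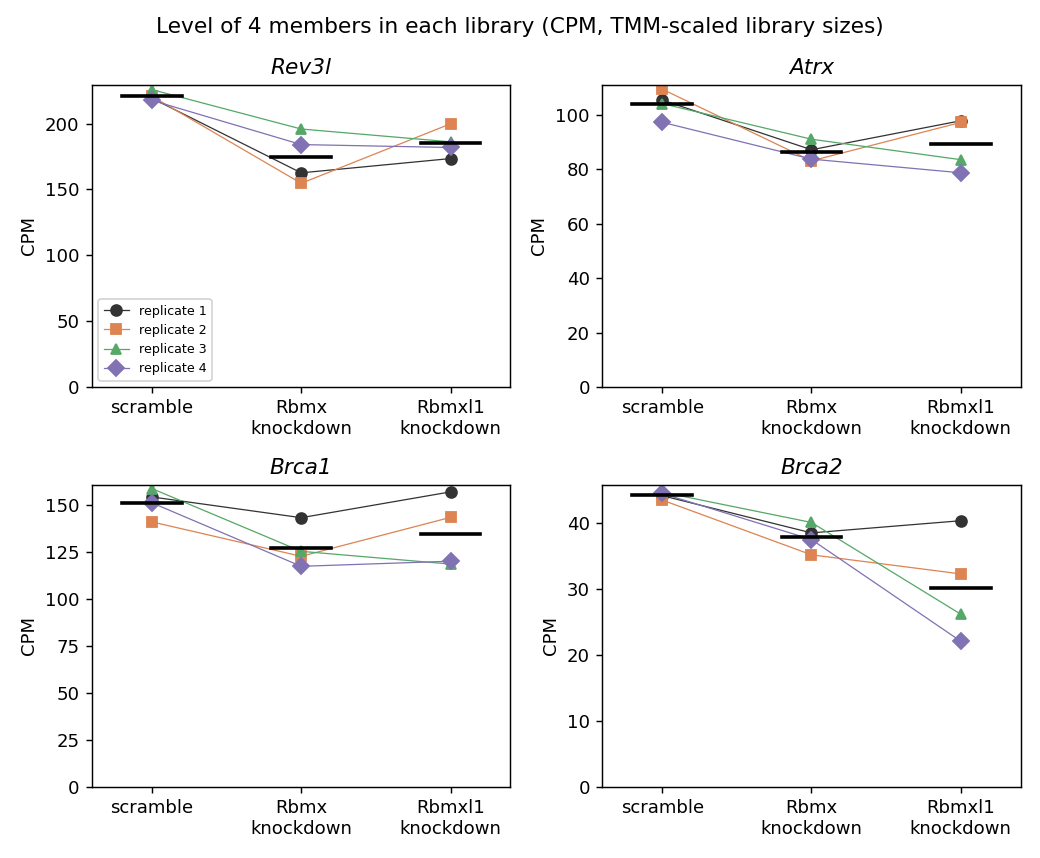
CPM (y axis, from 0) of Rev3l, Atrx, Brca1 and Brca2 in each library of the 3 groups (x axis), with thin lines joining libraries of the same replicate number and thick bars at the group means. Rev3l and Brca2 lie below the scramble libraries in all 8 knockdown libraries, while Brca1 in the Rbmxl1 knockdown is split, at 157 and 143 against 119 and 120 CPM.

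Of the other genome maintenance members, Bod1l, which protects stalled replication forks, was called lower in the Rbmx knockdown (−0.21 ± 0.06, adjusted p 0.049), but not with the offsets (−0.14, adjusted p 0.17). Polq, the polymerase of microhomology-mediated end joining, was lower in 4 of 4 pairs in both knockdowns but was not called (−0.36 ± 0.11, adjusted p 0.051, and −0.26 ± 0.11, adjusted p 0.20). After Rbmx knockdown, its difference was largest in replicates 1 and 2, at 19.1 and 17.8 CPM against 30.4 and 27.5 CPM in scramble. Replicates 3 and 4, at 32.9 and 32.7 CPM, were close to scramble. In edgeR's interaction test this split of Polq had an unadjusted p of 0.0045 and an adjusted p of 0.30. The mismatch repair genes Msh6 and Mlh3 were at 0.0044 and 0.16 in the Rbmx knockdown and were not called.

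Chromatin regulators formed one of the larger groups, with 19 members and 49 other genes tested on the list. For the Rbmx knockdown, 7 of the 19 members were called lower and none higher, with 17 below 0 and a median of −0.17. Of the 49 others 7 were called lower and 1 higher, with a median of −0.080. Under Rbmxl1 knockdown, 5 of 19 members and 10 of 49 others were called lower, with medians of −0.11 and −0.073. The Rbmx calls were Ankrd12, Kmt2a, Rai1, Bptf, Ash1l, Ncoa6 and Jmjd1c, and the Rbmxl1 calls were Ash1l, Ankrd12, Bptf, Jmjd1c and Setd2. Most of these calls ended with the offsets, which left 3 members (Ankrd12, Rai1 and Bptf) and 3 others called lower in the Rbmx knockdown, and 1 member (Ash1l) and 2 others in the Rbmxl1 knockdown.

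Ankrd12, a corepressor-binding protein, was at 77.2 to 93.2 CPM in scramble and at 61.6 to 66.7 CPM in the Rbmx knockdown, without overlap (−0.39 ± 0.07, adjusted p 0.0082). In the Rbmxl1 knockdown it was at 77.0, 85.8, 57.7 and 60.0 CPM, with replicate 2 inside the scramble range and replicate 1 just below it (−0.28 ± 0.07, adjusted p 0.038, and 0.16 with the offsets). Ash1l, a histone H3 lysine methyltransferase, was at 254, 235, 223 and 226 CPM in scramble, at 188 to 201 CPM in the Rbmx knockdown and at 171 to 201 CPM in the Rbmxl1 knockdown. Neither knockdown overlapped scramble, and the changes were −0.25 ± 0.05 (adjusted p 0.014) and −0.33 ± 0.05 (adjusted p 0.0064). The first of these was not called with the offsets (−0.17, adjusted p 0.076). Bptf, the largest subunit of the NURF remodelling complex, went from 325 to 377 CPM in scramble to 278 to 305 CPM in the Rbmx knockdown and 281 to 321 CPM in the Rbmxl1 knockdown. Both of its changes were called (−0.25 ± 0.05, adjusted p 0.013, and −0.22 ± 0.05, adjusted p 0.035), the second not with the offsets (−0.18, adjusted p 0.10). Kmt2a, the MLL histone methyltransferase, fell in the Rbmx knockdown by 0.32 on the log2 scale (adjusted p 0.022, and 0.053 with the offsets), while its paralogs Kmt2b and Kmt2d were at −0.18 and −0.14 and were not called. The Tet dioxygenases Tet1, Tet2 and Tet3, which oxidise methylated cytosine, lay between −0.14 and 0.08 in both knockdowns and were not called.

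RNA processing genes gave 11 members and 49 others. Under Rbmx knockdown, 3 members (Nktr, Scaf11 and Tnrc6c) and 10 others were called lower and none higher, with medians of −0.13 and −0.10. With Rbmxl1 reduced, 2 members (Scaf11 and Tnrc6c) and 6 others were called lower, with medians of −0.067 and −0.12. RNA processing genes without a very long internal exon thus had medians near or below those of the members. With the offsets Tnrc6c was the 1 member called lower in each knockdown, beside 6 and 2 others. Nktr, a cyclophilin-related protein with an arginine-serine-rich tail, was at 202, 180, 271 and 226 CPM in scramble and at 102, 102, 223 and 209 CPM in the Rbmx knockdown. Nktr fell by 0.55 on the log2 scale (SE 0.15, adjusted p 0.032). Replicates 1 and 2 fitted alone gave −0.90 and replicates 3 and 4 gave −0.21, a split whose interaction test had an unadjusted p of 0.012 and an adjusted p of 0.35. Tnrc6c, a partner of Argonaute in microRNA silencing, was called in both knockdowns (−0.31 ± 0.06, adjusted p 0.0082, and −0.35 ± 0.06, adjusted p 0.0064). Its scramble libraries split by replicate, at 360 and 320 CPM in replicates 1 and 2 and 240 and 239 CPM in replicates 3 and 4, so the groups overlapped although every pair was lower. The microRNA plasmids enter the same silencing pathway. All 3 groups received them, as 1 plasmid in scramble, 3 in the Rbmx and 2 in the Rbmxl1 knockdown. Their part in the change of Tnrc6c was not tested.

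The list of zinc-finger and other DNA-binding transcription factors held 19 members and 47 other genes that were tested. It does not hold every zinc-finger member: Zhx1 and Zfp646, described further on, are not on it. In both knockdowns 3 members of the list were called lower, namely Nfat5, Zfp592 and Zfp644, and none higher. Among the others 8 were called lower and 2 higher in the Rbmx knockdown, and 5 lower and 2 higher in the Rbmxl1 knockdown. The members' medians were −0.12 and −0.078, and those of the others −0.075 and −0.072. Nfat5, the transcription factor of the hypertonic stress response, was at 474, 446, 340 and 342 CPM in scramble and at 348, 324, 297 and 270 CPM in the Rbmx knockdown (−0.36 ± 0.06, adjusted p 0.0068). After Rbmxl1 knockdown, it was at 342, 394, 296 and 290 CPM (−0.27 ± 0.06, adjusted p 0.029). Zfp592, a zinc-finger protein, was at 101 to 138 CPM in scramble, and fell by 0.28 on the log2 scale in the Rbmx knockdown (adjusted p 0.022) and by 0.33 in the Rbmxl1 knockdown (adjusted p 0.017). With the offsets Zfp592 was called in both knockdowns and Nfat5 in the Rbmx knockdown only (−0.24, adjusted p 0.035, against −0.17, adjusted p 0.16, in the Rbmxl1 knockdown). Zfp644 was called in neither, and 4 and 0 of the others were called lower.

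Cytoskeleton and scaffold genes were the largest group, with 25 members and 37 others. In the Rbmx knockdown 2 members were called lower (Syne1 and Akap11) and 1 higher (Triobp), with a median of −0.11, against −0.064 for the others. For the Rbmxl1 knockdown, 2 were called lower (Akap11 and Trip11) and again Triobp higher, with a median of −0.047. Of the 37 others, 2 were called lower and 2 higher in the Rbmx knockdown and 2 lower and 1 higher in the Rbmxl1 knockdown. Triobp, which bundles actin filaments, was at 104, 86.8, 63.7 and 65.6 CPM in scramble, at 137, 123, 90.4 and 82.3 CPM in the Rbmx knockdown and at 142, 144, 91.8 and 85.1 CPM in the Rbmxl1 knockdown. It rose in every pair, on the log2 scale by 0.43 ± 0.06 (adjusted p 0.0024) and 0.52 ± 0.06 (adjusted p 6.4e-04), although the groups overlapped. Akap11, an anchor for protein kinase A, fell by 0.22 on the log2 scale in the Rbmx knockdown (adjusted p 0.022) and by 0.35 in the Rbmxl1 knockdown (adjusted p 0.0034). With the offsets no member of the list was called lower in the Rbmx knockdown, where Akap11 was at −0.11 (adjusted p 0.27) and Syne1 at −0.24 (adjusted p 0.054). In the Rbmxl1 knockdown Akap11 stayed called lower and Trip11 did not, and Triobp stayed called higher in both. The microtubule-associated genes Map1a, Map1b and Map1s, each with a very long exon, lay between −0.03 and 0.16 and were not called.

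Of 14 members among mitosis and centrosome genes, edgeR called none in the Rbmx knockdown, with 3 at an unadjusted p under 0.05 and a median of −0.046. Under Rbmxl1 knockdown, Nin, which anchors microtubules at the centrosome, and Esco1, a cohesin acetyltransferase, were called lower. Of the 41 others 3 were called lower in the Rbmx knockdown and none in the Rbmxl1 knockdown, where 6 had an unadjusted p under 0.05. Esco1 was at 29.7 to 36.5 CPM in scramble and 23.8 to 29.4 CPM in the Rbmxl1 knockdown, without overlap (−0.30 ± 0.06, adjusted p 0.016). With Rbmx reduced, it was at 30.1 to 33.9 CPM (−0.048 ± 0.061, adjusted p 0.68). Cenpf, a kinetochore protein, was at 0.24 ± 0.09 in the Rbmx knockdown (adjusted p 0.12), with scramble at 165, 168, 105 and 124 CPM and the knockdown at 156 to 166 CPM. With the GC and length offsets Cenpf (0.34, adjusted p 0.025) and Aspm were called higher in the Rbmx knockdown, while Nin (−0.22, adjusted p 0.13) and Esco1 (−0.23, adjusted p 0.088) were not called in the Rbmxl1 knockdown. Ubiquitin pathway and signalling genes held 6 members, of which only Fat1, an atypical cadherin, was called (0.22 ± 0.07 in the Rbmx knockdown, adjusted p 0.0496). Of the 75 others on that list 8 were called lower in each knockdown, and 3 in each with the offsets, where Fat1 stayed called.

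A total of 108 members were on none of the lists. After Rbmx knockdown, 10 of them were called lower and 4 higher, with a median of −0.041, and in the Rbmxl1 knockdown 7 lower and 3 higher, with a median of −0.019. The members outside the role lists thus had smaller medians than the set as a whole. Stox2, a winged-helix domain protein, was the most strongly expressed of the called genes. It was at 932, 885, 758 and 648 CPM in scramble, 623, 650, 547 and 527 CPM in the Rbmx knockdown and 655, 760, 619 and 562 CPM in the Rbmxl1 knockdown. It fell by 0.45 ± 0.06 (adjusted p 0.0024) and 0.31 ± 0.06 (adjusted p 0.014) on the log2 scale, and stayed called in both knockdowns with the offsets. Dnhd1, related to dynein heavy chains, had the largest fall in the Rbmx knockdown (−0.61 ± 0.13, adjusted p 0.012). Its libraries went from 51.6 to 72.2 CPM in scramble to 37.1 to 43.6 CPM without overlap, while in the Rbmxl1 knockdown they ranged from 38.1 to 65.1 CPM (−0.34 ± 0.13, adjusted p 0.14).

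Several further members outside the lists were lower. Zhx1, a zinc-finger and homeobox repressor, fell in both knockdowns (−0.29 ± 0.05, adjusted p 0.0078, and −0.33 ± 0.05, adjusted p 0.0064). Pdzd2, a protein with several PDZ domains, did so too (−0.25 ± 0.05, adjusted p 0.015, and −0.32 ± 0.05, adjusted p 0.0064). Both had scramble levels that split by replicate, with Pdzd2 at 79.5 and 70.6 CPM in replicates 1 and 2 and 38.2 and 39.8 CPM in replicates 3 and 4. Setbp1, which binds the SET oncoprotein, fell from 64.6 to 71.3 CPM to 49.7 to 60.6 CPM in the Rbmx knockdown (−0.36 ± 0.06, adjusted p 0.0053), and in the Rbmxl1 knockdown it was at 50.5 to 65.2 CPM (−0.26 ± 0.06, adjusted p 0.026). Lmtk3, a membrane kinase, and Zfp646, a zinc-finger protein, were called in the Rbmx knockdown (both −0.40, adjusted p 0.034 and 0.015). Bend3, a BEN-domain repressor, was called in the Rbmxl1 knockdown (−0.41 ± 0.11, adjusted p 0.049). With the offsets Pdzd2 in the Rbmx knockdown (−0.20, adjusted p 0.058) and Setbp1 in the Rbmxl1 knockdown (−0.23, adjusted p 0.061) missed the threshold.

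The members called higher were few. Fam196b had the lowest level of them, at 2.60 to 6.42 CPM in scramble, and rose by 0.45 ± 0.12 on the log2 scale (adjusted p 0.029) and 0.66 ± 0.12 (adjusted p 0.0090), in 4 of 4 pairs each time with overlapping groups. Rab11fip5, an effector of the recycling GTPase Rab11, was at 5.01 to 7.04 CPM in scramble and 7.14 to 10.2 CPM in the Rbmx knockdown, without overlap (0.50 ± 0.12, adjusted p 0.024). Uaca, a coiled-coil protein, was at 10.7 to 13.3 CPM in scramble and 14.6 to 15.9 CPM in the Rbmx knockdown (0.32 ± 0.09, adjusted p 0.033). Synm, the intermediate filament protein synemin, and Kif26a, a kinesin-like protein, were called in the Rbmxl1 knockdown (0.41 ± 0.09, adjusted p 0.025, and 0.37 ± 0.09, adjusted p 0.037). Kif26a was highest in replicate 3, at 215 CPM against 127 to 143 CPM in the other 3 libraries and 108 to 134 CPM in scramble. Without that library Kif26a was at 0.23 and was not called (adjusted p 0.12, edgeR), nor was it with the offsets (0.33, adjusted p 0.072).

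Across both knockdowns 44 members (20.8%) were called in at least 1 and 168 in neither. Of all genes tested 9.87% were called in at least 1, and of the other protein-coding genes with a mean count of 100 or more 14.1%. Both comparisons use the same scramble libraries, so calls can coincide for that reason alone, and the knockdowns were compared directly. There edgeR called none of the 212 members, with a lowest adjusted p of 0.77, and 2 of all genes tested (0.0114%). An unadjusted p under 0.05 was found for 17 members and for 1002 of the 17569 genes. DESeq2 called no member either. Without a filter on low counts edgeR called 3 members, in a fit that called 86 of 31777 genes (0.271%). The members' median was −0.022 for Rbmx minus Rbmxl1 knockdown. A gene called in 1 knockdown and not in the other, such as Brca2 or Dnhd1, is thus not shown to differ between them in the filtered fit of all 12 libraries.

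**Figure D5:**
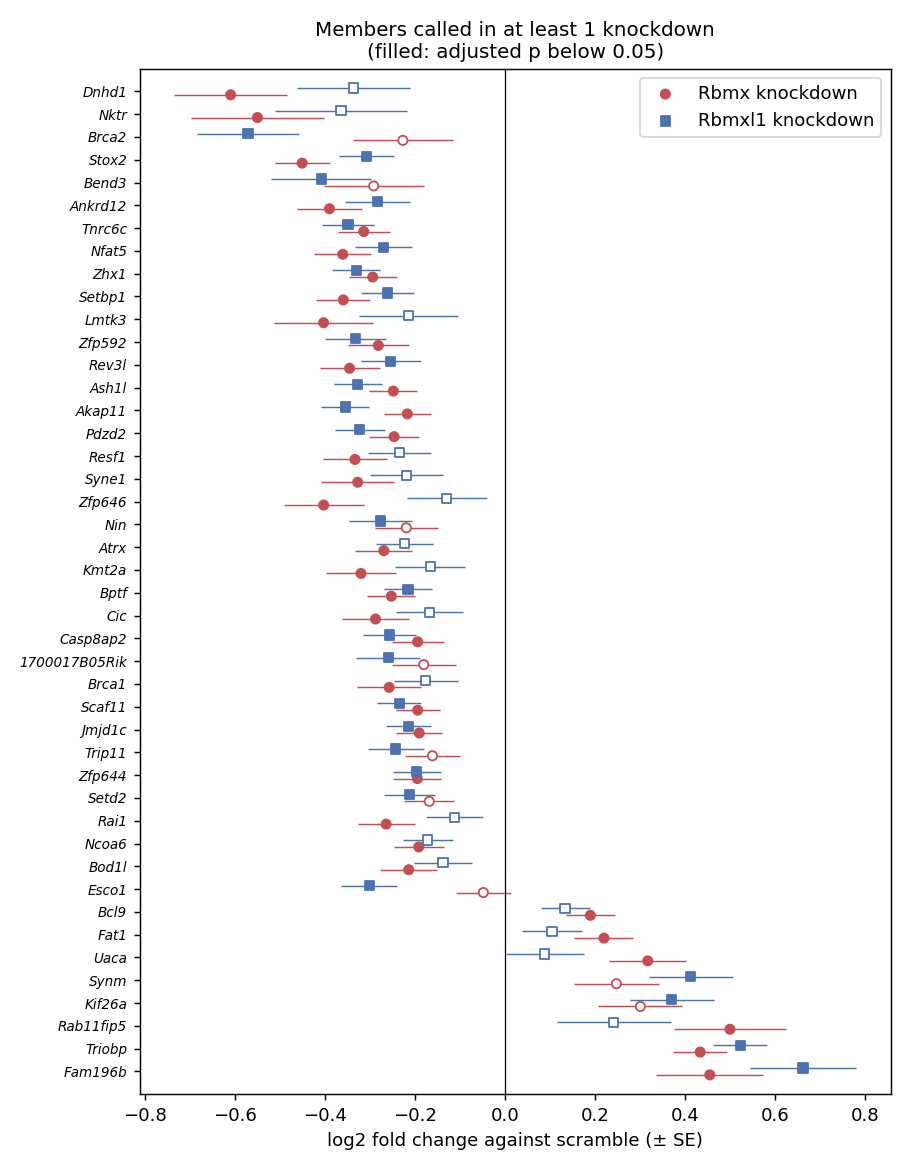
Log2 fold change against scramble with SE (x axis) of the 44 members called in at least 1 knockdown (y axis), in the Rbmx knockdown (circles) and the Rbmxl1 knockdown (squares), with filled symbols for an adjusted p under 0.05. The 36 genes called lower in at least 1 knockdown reach −0.61 for Dnhd1, the 8 called higher reach 0.66 for Fam196b, and both values of a gene rest on the same scramble libraries.

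The members with the longest internal exons were not those that changed most. Stard9, a mitotic kinesin-like protein with a 9837-nt exon, was at 31.5 to 36.4 CPM in scramble, 27.1 to 37.5 CPM in the Rbmx knockdown and 30.7 to 38.3 CPM in the Rbmxl1 knockdown (−0.14 ± 0.09, adjusted p 0.35, and less than 0.01 in size, adjusted p 0.997). Map1a (8104 nt), Spen (8020 nt), the proliferation marker Mki67 (6836 nt) and the presynaptic scaffold Bsn (6642 nt) were not called either. Of these Spen, a transcriptional repressor, was lower in 4 of 4 pairs in the Rbmx knockdown (−0.17 ± 0.06, adjusted p 0.080). Per kilobase of exonic length, the highest levels in scramble were those of Map1b at 237 CPM per kb, Gnas at 117, Prrc2b at 109, Srrm2 at 106 and Wdr6 at 94.4 CPM per kb, and the median member was at 9.94 CPM per kb. None of these was called in either knockdown in edgeR, and Srrm2, a spliceosome scaffold with a 6569-nt exon, was at −0.155 ± 0.061 in the Rbmx knockdown (adjusted p 0.13).

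Replicates 1 and 2 and replicates 3 and 4 were also fitted apart, since library composition differed between them. For the Rbmx knockdown, the members' medians were −0.099 and −0.062, and in the Rbmxl1 knockdown −0.025 and −0.068. With 2 libraries a group, replicates 1 and 2 alone called no member in the Rbmx knockdown and 1 lower and 1 higher in the Rbmxl1 knockdown. Few genes of any kind were called there, with 0.0115% of all genes tested called lower and as many higher in the Rbmx knockdown, and 0.0804% lower and 0.0919% higher in the Rbmxl1 knockdown. Replicates 3 and 4 alone called 29 members lower and 13 higher in the Rbmx knockdown, where 5.21% and 4.91% of all genes tested were called. In the Rbmxl1 knockdown they called 31 lower and 5 higher, where 2.72% and 2.8% of all genes tested were called. The interaction test of the difference between the subsets called no member in edgeR, with 43 members (20.3%) at an unadjusted p under 0.05 in the Rbmx knockdown and 31 (14.6%) in the Rbmxl1 knockdown, against 11.1% and 8.36% of all genes.

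The number of called members also depended on single libraries. Under Rbmx knockdown, 29 called-lower members became 10, 9 and 15 without scramble replicates 1, 3 and 4, and 14, 11 and 16 without Rbmx knockdown replicates 1, 2 and 3. The share of all genes tested that were called lower went down as well, from 4.19% to 1.34%, 0.884% and 2.2%, and to 2.24%, 1.27% and 1.25%. In the Rbmxl1 knockdown 23 became 7, 9, 5 and 9 without scramble replicates 1, 2, 3 and 4, and 10, 10 and 9 without Rbmxl1 knockdown replicates 1, 3 and 4. Over all genes tested 2.2% became 0.67%, 0.462%, 0.341% and 0.824%, and 0.691%, 0.894% and 0.955%. The members' medians stayed between −0.10 and −0.068 in the Rbmx knockdown and between −0.059 and −0.034 in the Rbmxl1 knockdown.

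At the limits of the rule, the members with the shortest qualifying exons were Caskin1 (2001 nt, −0.30 ± 0.11 in the Rbmx knockdown) and Fam135b (2014 nt, −0.15 ± 0.10). Just outside were Fmn1 (1994 nt, −0.17 ± 0.08) and Rpl18 (1992 nt, 0.097 ± 0.055). By count, Zfp697 (mean 117 counts, −0.035 ± 0.185) and Crybg2 (128 counts, 0.18 ± 0.15) were the lowest members, and Rhof (97.2 counts, −0.33 ± 0.20) and Myo15 (74.5 counts, −0.56 ± 0.29) lay just outside.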

How the data were processed

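The authors deposited 1 file of raw counts per gene for each of 12 libraries. Per the submitters' processing notes, cutadapt, STAR 2.5.3a, HTSeq 0.6.1p1, R 3.3.2 and DESeq2 1.16.1 were used with build mm10. The strand setting, the annotation and the parameters are not given in the sources used here. Stranded libraries were made from total RNA depleted of ribosomal RNA, per the labels' protocols. The last 5 rows of each file name no gene (reads outside features, ambiguous or multiply aligned reads). They held 52.3 to 57.4% of each file's total and entered neither the library sizes nor the tests. Multiply aligned reads were thus not assigned to genes, which lowers genes with near-identical copies, Rbmxl1 among them.

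From the counts, edgeR 4.0.16 in R 4.3.3 was run with filterByExpr (minimum count 10, minimum total 15), TMM scaling and a quasi-likelihood F-test on all 12 libraries. The model had group and replicate number, and p-values were adjusted by Benjamini-Hochberg over all 17569 genes tested. Each SE is the size of the log2 fold change over the square root of F. The replicate number was used as a block because the rule that defines the members asks for it. Over the 12 same-number pairs of libraries from different groups the correlation of deviations from group means was 0.195 to 0.524. Over the 36 other pairs it was −0.573 to 0.431. These ranges overlap, so they do not establish that libraries pair by number, and the labels give only the number. Library composition also differed between the lower and the higher replicate numbers, and its part in these correlations was not tested. Ratios within pairs used CPM with a pseudocount of 0.1. Trends on GC content and exonic length were natural splines with 5 degrees of freedom each. GENCODE M21 gave names, exons and sequences, and 55141 of the 55401 identifiers matched it. It may not be the annotation used for counting. DESeq2 1.42.0 was an alternative. The fit was also run on simulated counts, which held no replicate effect, so that run says nothing about the need for the block.

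The members and the gene lists were chosen with earlier results of these data known, so their directions are not independent evidence. Genes were named by a rule: the 4 marking genes; called members that moved the same way in 4 of 4 pairs, by size of change (up to 8 lower and 5 higher in the Rbmx knockdown, 6 and 5 in the Rbmxl1 knockdown); up to 12 members called in both knockdowns, by summed rank of adjusted p; the 5 longest exons; the 5 highest levels per kb; 2 genes on each side of each limit; and the largest change in each role list. Other members of a role list that are named were chosen after their values were seen. The limits that a count of 0 allows use 3 counts and cover counting error only. Alternatives were no replicate block, RLE size factors, DESeq2, no filter on low counts, the GC and length offsets, each library or replicates 1 and 2 or 3 and 4 left out, and other limits for the member rule. The value of 1 Neuro-2a marker is not reported here.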

Additional observations from a re-analysis of the deposited data

Results flagged for a closer look

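Among the 41 named members, each group of 4 libraries was checked for a library far from the others, which chance alone flags in about 1 of 20 groups, and 3 of 123 were flagged. Rab11fip5 in the Rbmxl1 knockdown was at 9.60 CPM in replicate 1 and at 5.98 to 6.54 CPM in the other libraries. Uaca in the Rbmx knockdown was at 15.87 CPM in replicate 1 and at 14.6 to 14.8 CPM in the others. Ash1l in the Rbmx knockdown was at 187.7 CPM in replicate 3 and at 200.04 to 201.2 CPM in the others.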

How the results depend on the processing

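The fit without the replicate block called 0% of members lower or higher in both knockdowns, while its medians, −0.081 and −0.051, moved by less than the spread between pairs. With GC and length offsets the share called lower was 7.08% in the Rbmx and 4.72% in the Rbmxl1 knockdown, and the Rbmx median was −0.031. Replicates 1 and 2 alone, with the block, called 0% in either direction in the Rbmx knockdown and 0.472% lower and 0.472% higher in the Rbmxl1 knockdown. Replicates 3 and 4 alone called 6.13% higher in the Rbmx knockdown and 0.472% higher in the direct comparison. Without the filter on low counts the direct comparison called 0.943% of members lower and 0.472% higher, and 0.271% of all genes in either direction. With exons of 3000 nt or more, 1.06% and 0% were called higher in the Rbmx and Rbmxl1 knockdowns, and members that overlap no other gene gave 0% higher in the Rbmx knockdown. Of all genes tested, 4.16% and 2.25% were called higher in the Rbmx and Rbmxl1 knockdowns. Leaving out each library in turn gave 4.25 to 16.0% called lower and 0.472 to 3.302% called higher in the Rbmx knockdown, and 2.36 to 13.7% lower and 0.472 to 1.89% higher in the Rbmxl1 knockdown. The same fits called 0.884 to 5.06% of all genes tested lower and 0.688 to 5.6% higher in the Rbmx knockdown. In the Rbmxl1 knockdown they called 0.341 to 2.53% lower and 0.364 to 3.24% higher. Brca1 in the Rbmxl1 knockdown was at 0.037 in replicates 1 and 2 alone, against −0.18, and was not called in either fit. Every other alternative kept the direction of the 45 named results. Leaving out 1 library ended the call of between 1 (without Rbmxl1 knockdown replicate 2) and 26 of them (without scramble replicate 3). The cause of these differences was not tested, beyond that fewer libraries were fitted. Members averaged 117 counts or more in scramble, so depth limits the lowest members most.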
